A study of Mus musculus with 6 samples.

Results

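The integrin subunits described here are 10 genes, 5 for alpha subunits (Itga2, Itga3, Itga5, Itga6 and Itgav) and 5 for beta subunits (Itgb1, Itgb4, Itgb5, Itgb6 and Itgb8). They were taken by gene symbol from a table of 37757 rows, and each had 1 row of its own. The cells were cultured kidney epithelial cells from mice of the strain C57/Bl6J, isolated at 8 weeks of age, with the genotype Bim-/- Bmf-/-, that is, labelled as lacking a pair of genes that promote apoptosis. One group was cultured attached and the other was held in suspension for 4 h, and the titles of the suspended samples name anoikis, the death of cells that have lost their anchorage. Both groups are labelled with the deletions and no group is labelled as having intact Bim and Bmf, so nothing below separates an effect of suspension from an effect that needs the deletions. Each group had 3 libraries, described as independent, but whether by culture or by animal is not said, so the tests may measure technical spread.

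Integrins are cell surface receptors made of 1 alpha and 1 beta chain, which bind extracellular matrix outside the cell and link to the actin cytoskeleton or to keratin filaments inside it. The pairing sets the ligand. In epithelia alpha3 and alpha6 with beta1, and alpha6 with beta4, bind laminins of the basement membrane. Alpha2 with beta1 binds collagen. Alpha5 with beta1, and alphav with beta1, beta5, beta6 or beta8, recognise the tripeptide arginine-glycine-aspartate (RGD) in fibronectin, vitronectin and the latent form of TGF-beta. Kidney tubule cells use integrins to hold to their basement membrane, and loss of that contact is the trigger of anoikis.

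Values are FPKM, fragments scaled to transcript length and library size, and each condition has a single value that pools its libraries. No value per library was analysed here, so neither a spread between replicates nor a depth can be given, and the order of 2 subunits with similar FPKM cannot be set against an error. A call means q below 0.05 in the authors' own test, where q is their p-value adjusted for the number of tests. Adjusting the deposited p-values over the 14748 rows tested called 7598 rows, against 7524 by the deposited q. The rows over which the authors adjusted are therefore not known exactly. The smallest q of the authors' deposited table is 0.000185, and it belongs to every called gene below for which no q is printed.

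All 10 subunits were tested, and 9 were called per the authors' deposited table, beside 51.0% of the 14748 rows tested. Higher calls in suspension numbered 6 of 10, beside 24.7% of tested rows, and lower calls 3 of 10, beside 26.3%. A change of at least 2-fold was reached by 3 of the higher calls (12.4% of all tested rows were higher by that rule) and 1 of the lower calls (7.12%). The subunit with the largest loss was Itga3, and those that rose by at least 2-fold were Itgb8, Itga2 and Itga5. The median log2 fold change of the 10 was 0.43, while that of the 14616 tested rows above 0 in both conditions was -0.04. For rows that reached 1 FPKM in both conditions the median was -0.11, and scaling that shift away left the direction of all 10 subunits as it was. In such bulk samples fewer cells of a type and less RNA per cell cannot be told apart.

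**Figure D1:**
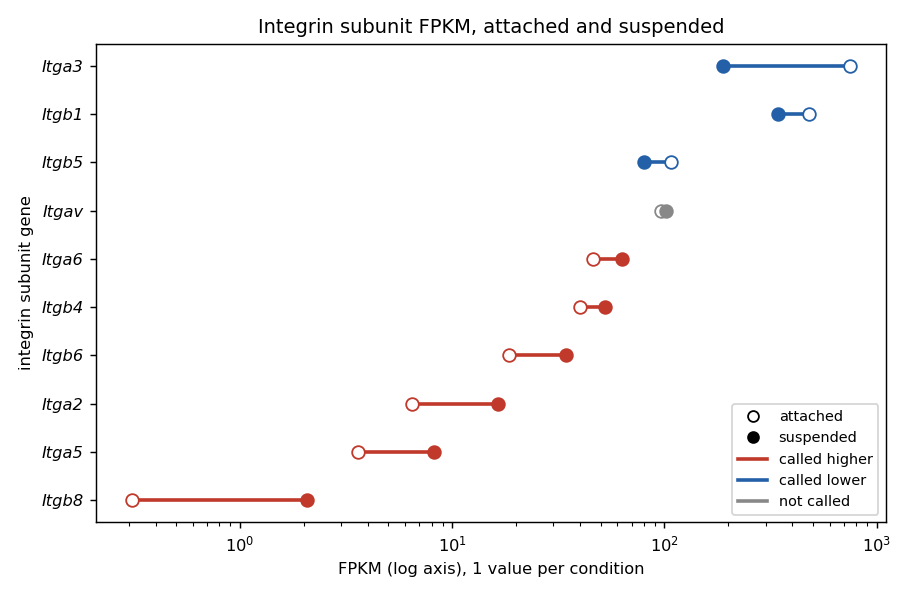
FPKM of the 10 integrin subunits plotted logarithmically from the authors' deposited table, attached as open and suspended as filled circles, 1 value each, ordered by the attached level and coloured by call. The 3 genes at the top, Itga3, Itgb1 and Itgb5, moved left, Itgav (96.7 and 101.7 FPKM) was not called, and the 6 genes at the bottom moved right.

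The promoter windows of 4 subunits are shown because they set the strongest loss and the partner of that subunit (Itga3 and Itgb1) beside strong gains (Itga2 and Itga5). They are RefSeq sequence of GRCm38.p6, 5′ to 3′ on the strand of the gene, and cover up to 250 bases before the RefSeq start site, stopping earlier where an annotated exon begins within them. No annotated exon begins within the Itga5 window, and the 50 bases that follow it were not found in a GENCODE transcript. Capitals mark matches to the motifs searched.
Itga3 (chr11:95076802-95076964, minus strand): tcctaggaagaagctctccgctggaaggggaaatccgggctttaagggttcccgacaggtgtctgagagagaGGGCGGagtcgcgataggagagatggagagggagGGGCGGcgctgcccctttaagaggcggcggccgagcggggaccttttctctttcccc
Itgb1 (chr8:128685404-128685653, plus strand): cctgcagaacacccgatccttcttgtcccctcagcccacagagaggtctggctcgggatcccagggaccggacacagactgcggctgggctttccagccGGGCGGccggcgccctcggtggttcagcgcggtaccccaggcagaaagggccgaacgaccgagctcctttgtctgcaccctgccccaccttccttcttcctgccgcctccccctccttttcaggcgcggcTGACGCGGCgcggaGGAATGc
Itga2 (chr13:114932101-114932350, minus strand): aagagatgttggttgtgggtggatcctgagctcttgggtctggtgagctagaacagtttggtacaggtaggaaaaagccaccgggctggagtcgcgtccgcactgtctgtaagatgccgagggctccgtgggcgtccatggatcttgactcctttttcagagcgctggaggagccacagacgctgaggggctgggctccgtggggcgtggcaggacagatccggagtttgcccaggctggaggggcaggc
Itga5 (chr15:103366792-103367041, minus strand): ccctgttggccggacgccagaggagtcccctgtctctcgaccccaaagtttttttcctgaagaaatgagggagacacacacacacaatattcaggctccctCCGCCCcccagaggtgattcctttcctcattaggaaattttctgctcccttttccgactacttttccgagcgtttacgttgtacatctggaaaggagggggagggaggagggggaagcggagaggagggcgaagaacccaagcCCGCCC
Windows were found for 8 of the 10 subunits, all but Itga6 and Itgb4. Itga3 and Itgb6 have 2 windows each, of which the first listed was used in the counts below, and the second window of Itga3 holds 1 SP1 match and that of Itgb6 holds 0 matches. The window of Itgb8 starts inside an annotated exon and is not printed. The motifs, sought on both strands over the whole 250 bases, were AP-1 (TGANTCA), TEAD (GGAATG), SP1 (GGGCGG), NRF2 (TGACNNNGC), FOXO (GTAAACA) and the E-box (CACGTG), and no matches overlapped in these windows. SP1 matched in 4 of 8 windows, those of Itga3, Itga5, Itgb1 and Itgb5, against 32.9% of 27025 promoters. These held 67.6%, 55.6%, 68.0% and 65.2% G and C bases in that order, against a median of 52.0% for all promoters. The windows without an SP1 match held 60.8% (Itga2), 64.4% (Itgav), 52.0% (Itgb6) and 62.4% (Itgb8). The SP1 motif is made of G and C alone, and the share over all promoters was not matched for base content. The first window of Itga3 held 3 SP1 matches, of which 2 lie in the printed part. TEAD matched in Itgb1 alone (12.6% of all promoters) and NRF2 in Itgb1 and Itgb6 (10.1%). AP-1, FOXO and the E-box matched in 0 of 8, against 6.87%, 3.09% and 6.05% of all promoters. Windows with a match belonged to 3 subunits called lower (Itga3, Itgb1 and Itgb5) and to a pair called higher (Itga5 and Itgb6), and a match describes these letters only.

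Laminin receptor subunits moved in opposite directions. Itga3, the alpha chain of the laminin receptor alpha3 beta1, was the most abundant subunit in attached cells, at 747 FPKM, and stood at 189 FPKM in suspended cells per the authors' deposited table. That is 3.95-fold lower (log2 fold change -1.98), a larger absolute change than in 91.4% of tested rows above 0 in both conditions. Its row spans chromosome 11, positions 95044474 to 95076801 (mm10). Itga6, the alpha chain of the other laminin receptors, went the opposite way per the authors' deposited table, from 46.0 to 63.2 FPKM, 1.37-fold higher (q = 0.00128; chromosome 2, positions 71745616 to 71858416). Itgb4, which pairs with alpha6 alone and anchors keratin filaments at hemidesmosomes, went from 40.1 to 52.7 FPKM per the authors' deposited table, 1.31-fold higher (q = 0.000831; chromosome 11, positions 115974709 to 116008412).

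The known partners alpha6 and beta4 therefore moved by nearly the same factor. There were 1.15 Itga6 FPKM for each Itgb4 FPKM in attached cells and 1.20 in suspended cells, computed from the authors' deposited table. Between the alpha chains the balance shifted: Itga3 stood 16.3-fold above Itga6 in attached and 2.99-fold above it in suspended cells, from the same FPKM. No test of these ratios is possible with 1 value per condition. The sum of the 3 laminin receptor subunits went from 833 to 305 FPKM per the authors' deposited table, and Itga3 alone fell by 558 FPKM while the others rose. The antisense long non-coding RNA B230344G16Rik overlaps exons of Itgb4 and stood at 2.34 and 3.24 FPKM per the authors' deposited table, far below Itgb4 itself. Whether strand was counted is not given in the sources used here.

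Itgb1, the beta chain shared by collagen, laminin and fibronectin receptors, was second in attached and first in suspended cells. It went from 480 to 341 FPKM per the authors' deposited table, 1.41-fold lower (log2 fold change -0.49; chromosome 8, positions 128685654 to 128733200). Itga3 lost more than its beta chain, so the order of this pair reversed: 1.56 Itga3 FPKM stood beside each Itgb1 FPKM in attached cells and 0.554 in suspended cells, from the authors' deposited table. The 5 alpha subunits, all of which can pair with beta1, summed to 1.88 times Itgb1 in attached cells and 1.11 times Itgb1 in suspended cells. Without Itga3 the other 4 summed to 0.319 and 0.555 times Itgb1, a move in the opposite direction. These are ratios of transcripts and say nothing of receptor at the surface.

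**Figure D2:**
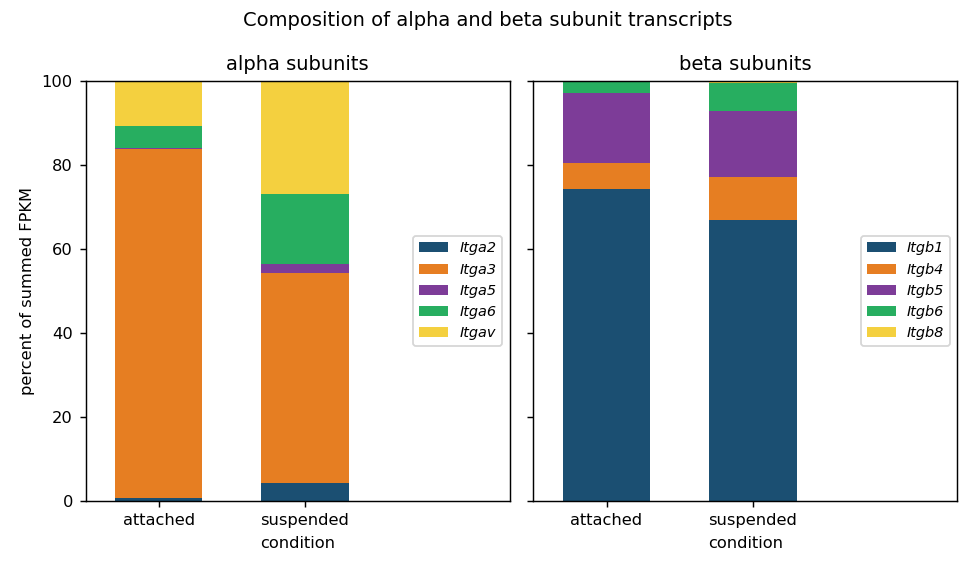
Share of the summed FPKM of the 5 alpha subunits (left) and of the 5 beta subunits (right) held by each gene, in percent, with 1 bar per condition computed from the authors' deposited table. Itga3 filled 83.0% of the alpha bar in attached and 49.9% in suspended cells, while Itgb1 went from 74.2% to 66.9% of the beta bar.

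The composition of the alpha subunits changed more than that of the beta subunits in these sums. Itga3 held 83.0% of the summed alpha FPKM in attached and 49.9% in suspended cells, computed from the authors' deposited table. The shares of Itgav went from 10.7% to 26.9% and those of Itga6 from 5.11% to 16.7%, in a sum of 900.2 and 378 FPKM. On the beta side Itgb1 held 74.2% and 66.9%, Itgb5 16.7% and 15.7%, Itgb4 6.21% and 10.3%, and Itgb6 2.87% and 6.73% of the summed beta FPKM. A share rises when another gene falls, and the share of Itgav grew while its own FPKM were not called. Without Itga3 the remaining 9 subunits summed to 799 FPKM attached and 699.9 FPKM suspended per the authors' deposited table.

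Of the collagen receptor chains, Itga2, the alpha chain of alpha2 beta1, rose. It went from 6.48 to 16.4 FPKM per the authors' deposited table, 2.53-fold higher (log2 fold change 1.34; chromosome 13, positions 114835916 to 114932041). Itga1, which also pairs with beta1 to bind collagen and is not among the 10, fell from 16.5 to 11.0 FPKM per the authors' deposited table. Their order thus reversed, with 2.54 Itga1 FPKM for each Itga2 FPKM in attached cells and 1.49 Itga2 FPKM for each Itga1 FPKM in suspended cells. The change in this order was not tested.

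Receptors for RGD ligands divided between chains that rose and chains that did not. Itga5, the alpha chain of the fibronectin receptor alpha5 beta1, went from 3.60 to 8.16 FPKM per the authors' deposited table, 2.27-fold higher (chromosome 15, positions 103344289 to 103366763). The annotated microRNA Mir6963 lies within Itga5 on the same strand, outside its exons. Itgav, the alpha chain shared by the alphav receptors, stood at 96.7 and 101.7 FPKM per the authors' deposited table and was not called (log2 fold change 0.07, q = 0.60; chromosome 2, positions 83724397 to 83806916). Itgav stood 26.9-fold above Itga5 in attached and 12.5-fold above it in suspended cells, so alphav stayed the more abundant RGD-binding alpha transcript.

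The beta chains that pair with alphav moved apart. Itgb5, a vitronectin receptor chain, fell from 108 to 80.1 FPKM per the authors' deposited table, 1.34-fold lower (q = 0.000355; chromosome 16, positions 33829665 to 33949153). Itgb6, an epithelial chain that binds fibronectin and latent TGF-beta, rose from 18.6 to 34.4 FPKM per the authors' deposited table, 1.85-fold higher (q = 0.000355; chromosome 2, positions 60598292 to 60722643). Itgb8, which also binds latent TGF-beta, rose from 0.311 to 2.06 FPKM per the authors' deposited table, 6.64-fold higher (log2 fold change 2.73; chromosome 12, positions 119158022 to 119238802). Itgb8 had the largest fold and the lowest level of the 10, and with a pseudocount of 1 FPKM its log2 fold change was 1.22.

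Itgb5 remained the leading chain of the 3, but its lead over Itgb6 went from 5.79-fold to 2.33-fold, computed from the authors' deposited table. The 3 beta chains together summed to 127 FPKM attached and 117 FPKM suspended, against 96.7 and 101.7 FPKM of Itgav. All 5 subunits of the RGD class together summed to 227 and 226 FPKM. Across all 10 subunits the highest FPKM stood 2406-fold above the lowest in attached cells and 165-fold above it in suspended cells. The ranks by FPKM held for Itga2, Itga5, Itga6, Itgb4, Itgb6 and Itgb8 and changed only among the 4 most abundant, Itga3, Itgb1, Itgb5 and Itgav.

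**Figure D3:**
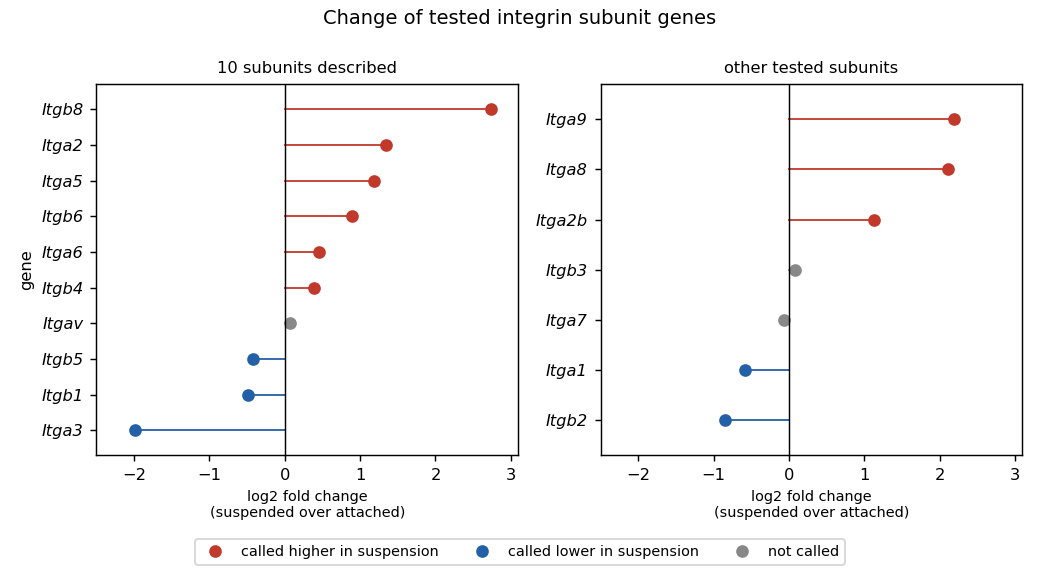
Log2 fold change, suspended over attached, of the 10 integrin subunits (left) and of the 7 other subunit genes that were tested in a row of their own (right), taken from the authors' deposited table, with colour showing the call. The 10 run from -1.98 for Itga3 to 2.73 for Itgb8, and the others from -0.84 for Itgb2 to 2.19 for Itga9.

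The mouse genome has further integrin genes, of which 16 had a row of their own and 7 were tested. By the authors' calls 3 of the 7 were called higher (24.7% of all tested rows), 2 lower (26.3%), and 2 were not called. The higher calls were Itga2b (1.87 to 4.07 FPKM, q = 0.00852), Itga8 (0.139 to 0.602 FPKM, q = 0.0371) and Itga9 (0.117 to 0.536 FPKM, q = 0.0319), the latter pair below 1 FPKM in both conditions per the authors' deposited table. Itga8 is the nephronectin receptor chain of kidney mesenchyme. The lower calls were Itga1 and Itgb2, the beta chain of leukocyte integrins, which went from 5.27 to 2.94 FPKM per the authors' deposited table. Itga7, a laminin receptor chain of muscle (8.34 and 8.00 FPKM, q = 0.741), and Itgb3, another partner of alphav (4.56 and 4.83 FPKM, q = 0.641), were not called per the authors' deposited table. The 9 untested genes reached at most 0.195 FPKM, among them the leukocyte alpha chains Itgal, Itgam, Itgad and Itgax. The FPKM of the 10 subunits summed to 1547 attached and 889 suspended, and those of these 16 genes to 37.2 and 32.6.

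Genes for integrin ligands were called in both directions. Of 39 laminin, collagen and RGD ligand genes 26 were tested, of which 7 were called higher (24.7% of all tested rows) and 12 lower (26.3%) per the authors' deposited table. Of 8 laminin chains tested, 3 were called higher and 4 lower, beside the same 24.7% and 26.3%. Lama3 (15.3 to 31.9 FPKM), Lamb3 (59.3 to 80.2 FPKM, q = 0.000355) and Lamc1 (19.3 to 64.8 FPKM) rose per the authors' deposited table. Lamb1 (137 to 61.2 FPKM), Lama5 (79.3 to 63.5 FPKM, q = 0.0181) and Lamb2 (33.8 to 26.3 FPKM, q = 0.00185) fell per the authors' deposited table. Lama3 and Lamb3 encode chains of the laminin that alpha3 beta1 and alpha6 beta4 bind with high affinity. Lama3 and Lamb3 were thus called in the direction of Itga6 and Itgb4 and opposite to Itga3.

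Collagen chains were called lower more often than higher, while of the collagen receptor chains Itga2 was called higher and Itga1 lower. Of 7 collagen genes tested 4 were called lower (26.3% of all tested rows) and 1 higher (24.7%) per the authors' deposited table, and the median log2 fold change of the 7 was -0.32. The basement membrane collagens Col4a3 (24.0 to 8.36 FPKM), Col4a4 (18.4 to 11.1 FPKM), Col4a5 (31.1 to 18.4 FPKM) and Col4a6 (11.7 to 9.36 FPKM, q = 0.010) fell per the authors' deposited table. Col4a1 rose from 0.751 to 1.09 FPKM (q = 0.0367) per the authors' deposited table. The fibrillar collagen genes Col1a1, Col1a2 and Col3a1 were not tested, and Col1a1 had the highest level of these at 0.0860 FPKM.

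RGD ligands held the most abundant transcript of these lists. Of 11 tested, 3 were called higher and 4 lower (24.7% and 26.3% of all tested rows) per the authors' deposited table. Spp1, the secreted phosphoprotein osteopontin, fell from 5553 to 3512 FPKM (q = 0.000676) per the authors' deposited table. Thbs1, thrombospondin, fell from 675 to 39.9 FPKM, and Npnt, nephronectin, fell from 87.2 to 51.0 FPKM per the authors' deposited table. Fbn1, fibrillin, fell from 1.30 to 0.830 FPKM (q = 0.000518) per the authors' deposited table. Mfge8, a secreted glycoprotein that alphav beta5 binds, rose from 165 to 210 FPKM (q = 0.00185), the opposite direction to Itgb5 per the authors' deposited table. Tgfb1 rose from 18.5 to 25.6 FPKM (q = 0.00199) per the authors' deposited table. Its latent form is a ligand of alphav beta6 and alphav beta8, and the gene moved in the same direction as Itgb6 and Itgb8. Another TGF-beta gene, Tgfb3, named after its values were seen, stood at 0.585 and 1.11 FPKM, not called (q = 0.0785) per the authors' deposited table. Fn1, fibronectin, was named after its values were seen and stood at 103 and 119.7 FPKM without a call (q = 0.0837) per the authors' deposited table. Fibronectin is a ligand of alpha5 beta1 and of alphav beta6. The vitronectin gene Vtn is listed at 0 in both conditions.

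**Figure D4:**
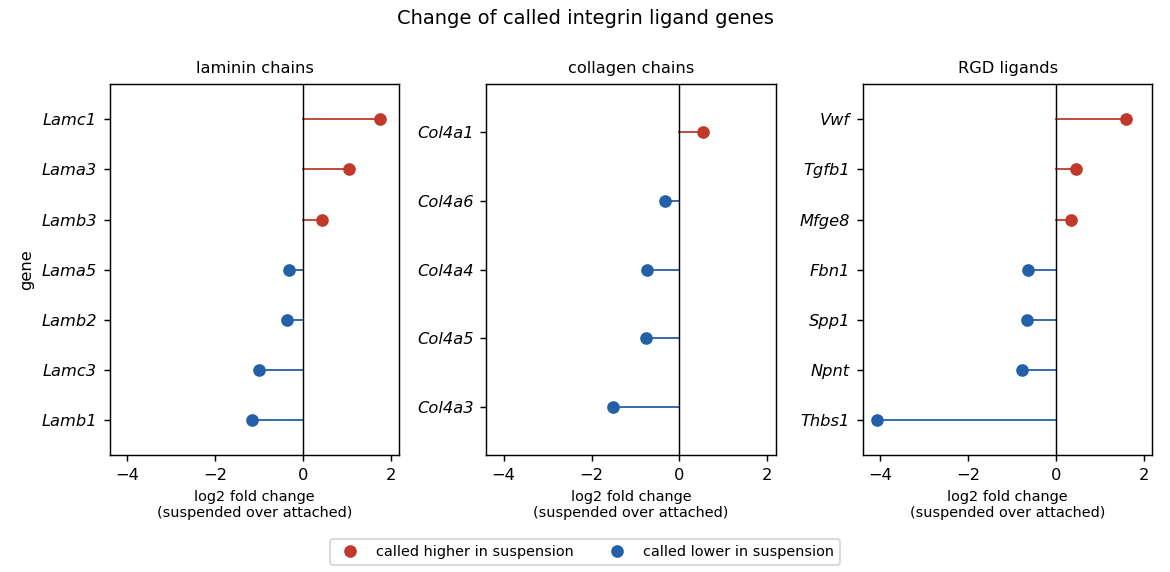
Log2 fold change, suspended over attached, of the called laminin chains (7), collagen chains (5) and RGD ligands (7), taken from the authors' deposited table, with colour showing the direction. Laminin chains spread to both sides, collagens lie mostly left of 0, and Thbs1 has the lowest value at -4.08.

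Genes for intracellular regulators and adaptors of integrins, a list that mixes activators with inhibitors, were called lower more often than higher. Of 13 genes tested in the list of activators and adaptors, 8 were called lower (26.3% of all tested rows), 2 higher (24.7%) and 3 not, and the 13 had a median of -0.44 on the log2 scale per the authors' deposited table. Tln1, talin, which switches integrins on through the beta tail, fell from 35.5 to 23.4 FPKM per the authors' deposited table. Ilk, a pseudokinase that couples beta tails to actin, fell from 155 to 95.1 FPKM, and Flna, the actin crosslinker filamin A, fell from 234 to 174 FPKM (q = 0.0437) per the authors' deposited table. Snx17, which returns internalised beta1 to the surface, fell from 65.9 to 48.6 FPKM (q = 0.00551), and Sharpin, an inhibitor of integrin activation, fell from 39.9 to 26.7 FPKM (q = 0.00241) per the authors' deposited table. Rap1b, a small GTPase that promotes activation, rose from 153 to 219 FPKM per the authors' deposited table. Named after their values were seen, Tln2 fell from 14.7 to 3.31 FPKM and Fermt2, kindlin-2, from 35.7 to 18.8 FPKM per the authors' deposited table.

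Membrane partners and hemidesmosome genes were called higher or not called. Of 9 tested, 6 were called higher (24.7% of all tested rows), 0 lower and 3 not, and the 9 had a median of 0.32 on the log2 scale per the authors' deposited table. The tetraspanins Cd9 (618 to 774 FPKM, q = 0.00387) and Cd82 (201 to 250 FPKM, q = 0.0256), which associate laterally with integrins, rose per the authors' deposited table. Slc3a2, a transporter subunit that binds beta1 tails, rose from 91.4 to 117 FPKM (q = 0.00213), and Cd47, a partner of alphav integrins, rose from 27.2 to 48.9 FPKM per the authors' deposited table. Dst, which encodes a hemidesmosome plaque protein and other isoforms, rose from 28.0 to 51.0 FPKM (q = 0.0109) per the authors' deposited table. Col17a1, a hemidesmosome collagen, rose from 0.0483 to 0.633 FPKM per the authors' deposited table, below 1 FPKM in both conditions. Dst and Col17a1 were called in the direction of Itga6 and Itgb4, the integrin of hemidesmosomes. Of all tested rows 24.7% were called in that direction, and a joint change of these genes was not tested. Cd151, a tetraspanin partner of laminin-binding integrins named after its values were seen, stood at 170 and 164 FPKM without a call (q = 0.729) per the authors' deposited table.

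**Figure D5:**
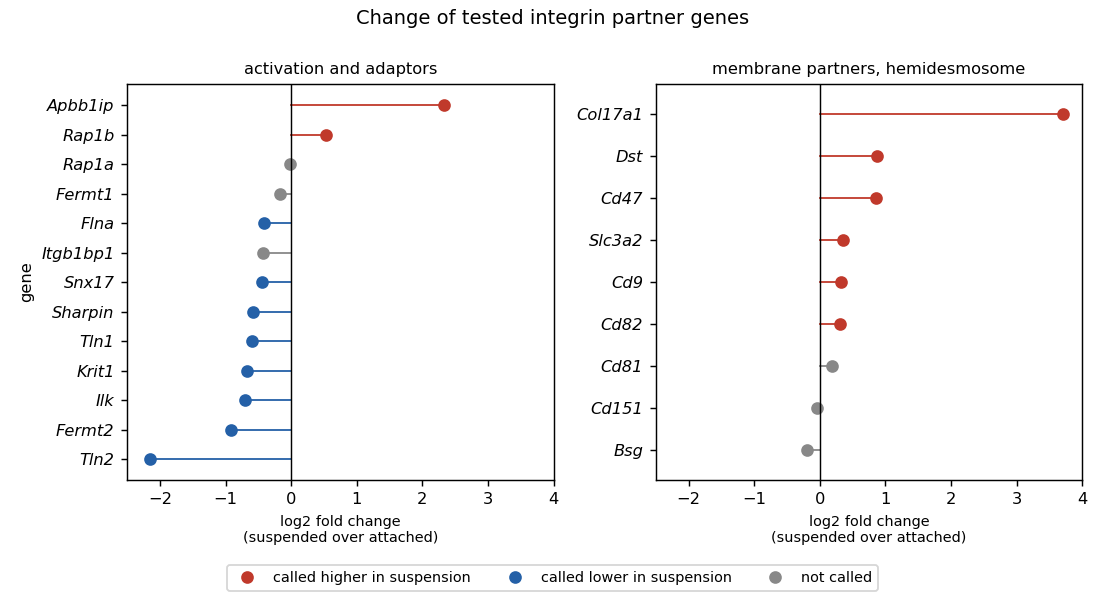
Log2 fold change, suspended over attached, of 13 tested activators and adaptors (left) and 9 tested membrane partners and hemidesmosome genes (right), taken from the authors' deposited table, with colour showing the call. Most of the left points lie below 0, down to -2.15 for Tln2, and most of the right points above it, up to 3.71 for Col17a1.

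The labelled cell type was checked against markers. All 10 tubule epithelium markers were tested and stood above 10 FPKM in both conditions, and 7 were called lower (26.3% of all tested rows) and 2 higher (24.7%). Of these, 4 are named after their values were seen. Pax2 went from 150.2 to 30.9, Pax8 from 104 to 37.1 and Krt7 from 721 to 379.5 FPKM, lower, and Cdh1, E-cadherin, from 95.4 to 201 FPKM, higher, per the authors' deposited table. Epcam (261 and 253 FPKM, q = 0.761) was the only one of the 10 not called, and the FPKM of the list summed to 3247 in attached and 2699 in suspended cells. Of 9 leukocyte markers, 3 of which are integrin genes, 4 were tested, with 3 called higher and 1, Itgb2, lower, and their FPKM summed to 31.0 and 53.9. Ptprc, which defines leukocytes, went from 1.42 to 12.4 FPKM per the authors' deposited table, while 2 of the 9 are listed at 0 in attached and 1 in suspended cells. None of 5 endothelial markers was tested, 1 of 4 podocyte markers was tested and called higher, and fibroblast markers split into 1 higher and 1 lower of 2 tested. Endothelial markers summed to 0.357 and 0.313 FPKM, podocyte markers to 2.53 and 12.7, and fibroblast markers to 3.13 and 3.23. The genes labelled as deleted, Bcl2l11 (which encodes Bim) and Bmf, had 9.53 and 2.95 FPKM attached against 51.4 and 4.30 suspended per the authors' deposited table, with a call for Bcl2l11 only, but values over whole genes do not show which exons remain and check nothing about the genotype. All 10 tested mitochondrial rows had higher FPKM in suspension, while the median log2 fold change of tested rows above 0 in both conditions was -0.04. Of these 10 rows 3 were called higher, beside 24.7% of all tested rows, and 0 lower. The part of these differences in the integrin results was not tested.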

How the data were processed

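Messenger RNA from 3 attached and 3 suspended samples was sequenced on an Illumina instrument, per the labels' protocols. TopHat, Bowtie, Cufflinks 1.0.3 and Cuffdiff are named, with mm10, per the submitters' processing notes; the sources used here do not give settings, annotation or use of strand. The authors deposited FPKM pooled per condition, a log2 fold change, a test score, a p-value and a q-value for each row. The condition names given on every row end in A and S and were read as attached and suspended.

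Calls are the deposited q below 0.05. Of 37757 rows 14748 were tested, and recomputing log2 fold changes from FPKM gave differences of at most 4.0e-05. Deposited p-values stop at 5e-05. Depth is unknown, so no interval is given. Ratios, sums and shares were computed from the FPKM. Deposited starts count from 0 and were raised by 1 (19333 of 34106 rows then equal GENCODE M21 starts, against 327 before). Repeated names used the tested row, older symbols went through RefSeq synonyms, and rows naming several genes (Itga10, Plec) stayed out of list counts. Members and lists were chosen with earlier results of these data known. The text names all members, called subunits and up to 6 called genes per list with the highest mean FPKM. A few genes are not reported here. Promoters are RefSeq's (GRCm38.p6). The rule for calls and the Benjamini-Hochberg adjustment were tested on simulated data. The authors' own test, the ratios, sums and shares, the matching of lists and the motif search were not. Calculations used Python 3.11.15, pandas 2.3.3, NumPy 2.4.6 and SciPy 1.17.1. Alternatives were a stricter q, a 2-fold minimum, a recomputed Benjamini-Hochberg adjustment, a 1 FPKM minimum, pseudocounts of 0.1 and 1 FPKM, and 2 scalings.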

Additional observations from a re-analysis of the deposited data

How the results depend on the processing

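With a 2-fold minimum, 3 subunits were called higher and 1 lower (6 and 3 without it), 3 ligand genes higher and 3 lower (7 and 12 without it), and 2883 rows in all (7524 without it). The counts of subunits were within 1.5 times under q below 0.01, the recomputed adjustment and the 1 FPKM minimum, as were those of ligand genes. The median log2 fold change of the 10 subunits, 0.43, was 0.42 with a pseudocount of 0.1 FPKM, 0.42 with 1 FPKM, 0.53 with conditions scaled to the same median and 0.52 with the same upper quartile. All 40 values of single subunits under these 4 alternatives kept their direction. No paired analysis was possible because the deposited columns hold 1 value per condition and carry no replicate number. Leaving out each replicate, another test and another normalization need values per library and were not run. Ratios between subunits have no test. Depth is unknown, so what it limits cannot be given.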

Other observations

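Plec stands in a row that names several genes, so its own level cannot be read. The row naming Plec, the hemidesmosome linker that binds beta4, together with Parp10 went from 36.9 to 62.3 FPKM (q = 0.000185) per the authors' deposited table.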
